A study of Mus musculus with 4 samples.

Results

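Cells of the fracture callus called immature granule-gene neutrophils, a name that follows the rule below, were examined here. They were chosen by measured values, as barcodes of the 2 callus libraries with at least 500 UMIs, 200 genes and at most 10% mitochondrial UMIs, in which S100a8 and S100a9 together made up at least 1% of UMIs and Ngp, Camp and Ltf together at least 0.3%. The rule found 292 of the 14451 callus cells that passed the filters, 112 of 7133 in the control callus and 180 of 7318 in the GC callus. All 4 libraries came from 20-week-old male C57BL/6J mice and were taken at week 2. The GC mice received prednisolone at 6.25 mg/kg/d and the control mice a placebo, per the labels by slow-release pellets under the skin (the study's methods name daily injection for the fracture model), and 1 library each was made of fracture callus and of trabecular bone. Marrow plugs were flushed and the remaining bone was crushed and digested with enzymes. How many mice went into each library is not stated in the sources used here. With 1 library per tissue and treatment, the control and GC callus cells are set side by side with counting intervals (95%, which cover counting error only) and without a test.

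Neutrophils build their granules in a fixed order as they mature. Azurophil granule proteins such as myeloperoxidase are made first, in promyelocytes, specific granule proteins such as lactoferrin follow in myelocytes and metamyelocytes, and gelatinase granule proteins and surface receptors such as Cxcr2 come last. A neutrophil that still carries much granule-protein RNA is therefore regarded as immature, and such cells are normally kept in the marrow. Ngp encodes neutrophilic granule protein, Camp the cathelicidin antimicrobial peptide and Ltf the iron-binding lactoferrin, while S100a8 and S100a9 form calprotectin, the most abundant cytosolic protein complex of neutrophils.

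The 3 granule genes of the rule lie within 1.2 megabases of chromosome 9 (GRCm38, GENCODE M21): Camp at chr9:109847379-109849617 on the minus strand, Ngp at chr9:110419747-110423012 and Ltf at chr9:111019271-111042767, both on the plus strand. All 3 are protein-coding. The 200 bases before the RefSeq start of each (GRCm38.p6) are shown because these genes define the cells. Capitals mark matches to TTGCNNAA on either strand, a C/EBP-like motif. It was found in 7.47% of 32851 RefSeq promoter windows of this length, and a match is a description only. RefSeq and GENCODE differ in where they place the starts of Ngp, Camp and Ltf, so GENCODE counts the end of the Ngp and Ltf windows and most of the Camp window as part of the gene.
Ngp, chr9:110419608-110419807, plus strand, 2 matches beginning 138 and 11 bases before the start: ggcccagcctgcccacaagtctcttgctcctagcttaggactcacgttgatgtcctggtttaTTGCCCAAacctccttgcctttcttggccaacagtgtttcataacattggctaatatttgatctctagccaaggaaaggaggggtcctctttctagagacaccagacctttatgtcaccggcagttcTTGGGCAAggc
Camp, chr9:109849457-109849656, minus strand, 0 matches: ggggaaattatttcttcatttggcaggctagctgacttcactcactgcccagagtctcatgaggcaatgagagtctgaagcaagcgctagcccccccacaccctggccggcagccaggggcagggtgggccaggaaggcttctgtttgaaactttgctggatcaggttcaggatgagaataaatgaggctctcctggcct
Ltf, chr9:111019092-111019291, plus strand, 1 match beginning 75 bases before the start: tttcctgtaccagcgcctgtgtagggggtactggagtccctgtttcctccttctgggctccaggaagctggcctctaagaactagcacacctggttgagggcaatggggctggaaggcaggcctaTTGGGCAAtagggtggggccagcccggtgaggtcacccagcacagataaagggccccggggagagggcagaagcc

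The granule-gene cells held a median of 2957.5 UMIs in the control callus and 2484 in the GC callus, against 8232 and 7353 in the cells of control and GC trabecular bone that passed the same rule. Their UMIs summed to 463418 and 622131. No barcode was a granule-gene cell in both callus libraries, and 12 barcodes that passed the filters occurred in both. The GC callus matrix lists only 7762 barcodes, none under 500 UMIs, while the other 3 also list barcodes down to 1 UMI. In the control callus, barcodes of 10 to 100 UMIs, taken as empty droplets, had 0.0096% of their UMIs from Ngp, Camp and Ltf and 0.101% from S100a8 and S100a9. B cell barcodes, defined by Cd79a and Cd79b, had 0.000309% and 0.00215% from the 3 granule genes in the control and GC callus, far below the limit of 0.3%. In control and GC trabecular bone the empty droplets held more of them, 1.41% and 0.668%, above the limit of 0.3%. B cell barcodes there held 0.213% and 0.0213%. How many trabecular cells passed the rule through free RNA was not tested.

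Of other cell types, cartilage markers stood out. All 11 chondrocyte markers had UMIs in the granule-gene cells of both callus libraries and summed to 26384 CPM (UMIs of a gene per 1000000 UMIs of the cells summed) in the control and 11936 CPM in the GC callus, against 0.764 and 0.465 CPM in trabecular bone. The medians per cell were lower, 3380 and 1261 CPM. Most of these UMIs sat in a few cells: 6 control cells (median 22017.5 UMIs) and 30 GC cells (median 2181) had at least 1% of their UMIs from the list, and they held 90.7% and 92.8% of its UMIs. These cells also held 26.9% and 15.4% of all UMIs of the granule-gene cells. The 8 osteoblast and stromal markers summed to 9844 and 8014 CPM. Erythroid markers summed to 77.7 CPM in the control and 2123 CPM in the GC callus. The macrophage (45.3 and 28.9 CPM), T and NK cell (12.9 and 17.7 CPM), endothelial (10.8 and 24.1 CPM) and osteoclast lists (45.3 and 20.9 CPM) were near 0. Monocyte markers were not. At least 2 of their UMIs were found in 12.7% of control and 14.9% of GC granule-gene cells thinned to 1000 UMIs. In the other callus cells with an S100 share of at least 1% these shares were 3.38% and 3.20%. In control and GC trabecular cells under the rule they were 25.6% and 31.9%. The part these sources play in the results below was not tested, and values without the chondrocyte-rich cells are given beside the results named below that they moved most.

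The cells just inside the limits were checked against late neutrophil and cartilage genes. Near the granule limit, 9 control and 12 GC cells lay between 0.3% and 0.4%, with a median of 6 granule UMIs in each library and with Retnlg, a late neutrophil gene, at 30628 and 23460 CPM. Just outside, between 0.2% and 0.3%, lay 6 and 23 cells, with Retnlg at 12126 and 8882 CPM. Near the S100 limit, no control cell but 14 GC cells lay between 1% and 1.5%, and these had Retnlg at 120 CPM, no UMI of the G-CSF receptor Csf3r and chondrocyte markers at 78977 CPM, so for these 14 cells the markers go against the name neutrophil. Another 22 GC cells and no control cell passed the granule limit with an S100 share of 0.5% to 1%, just outside the rule.

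**Figure D1:**
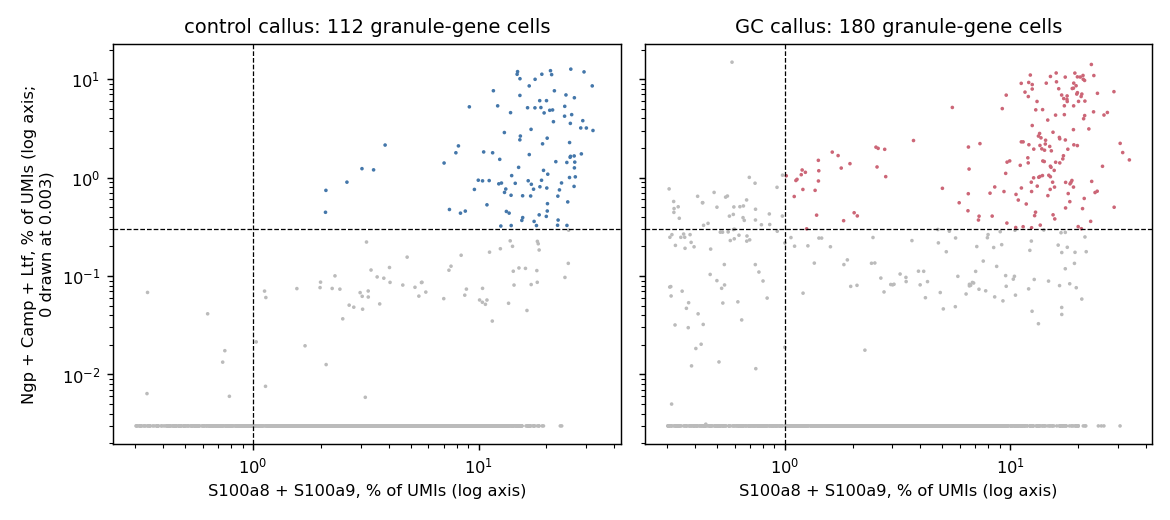
Share of UMIs from S100a8 and S100a9 (horizontal) against the share from Ngp, Camp and Ltf (vertical), both on log axes, for each callus cell with an S100 share of at least 0.3%. Dashed lines are the limits of the rule, colored points the 112 control and 180 GC granule-gene cells, and cells without a granule UMI are drawn at 0.003%.

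Of the genes of the rule, S100a8, S100a9 and Ltf were close in level in both callus libraries, and Ngp and Camp were higher in the GC one. S100a8 stood at 68131 CPM in the control and 67778 CPM in the GC callus, and S100a9 at 74490 and 76524 CPM. Ngp stood at 18111 CPM (17726 to 18503) in the control and 23643 CPM (23262 to 24028) in the GC callus, Camp at 10649 and 15710 CPM, and Ltf at 2294 and 2451 CPM. Ngp was seen in 112 of 112 control and 179 of 180 GC cells, Camp in 84 and 144, and Ltf in 60 and 106. The summed granule share had a median of 1.43% in the control (quartiles 0.756% and 4.41%) and 1.57% in the GC callus (0.801% and 4.89%), and its highest values were 12.7% and 14.1%. In trabecular bone its medians were 6.58% and 3.33%. These values chose the cells and are given as a description.

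Of the 2 markers that the rule did not use, Lcn2, a siderophore-binding protein of specific granules, was found in 107 of 112 control and 171 of 180 GC cells, at 4085 and 3851 CPM. In the 1435 and 1123 other callus cells with an S100 share of at least 1%, Lcn2 was at 326 and 596 CPM. Retnlg, a resistin-like secreted protein, was found in 108 and 156 of the granule-gene cells, at 19527 and 11920 CPM, against 3218 and 3714 CPM in those other cells. Most of these others, 1369 and 1033, had no UMI of the 3 granule genes. The comparison with them follows the rule itself and has no test. In trabecular bone Retnlg did not set apart the cells under the rule. It was found there in 82.6% and 92.5% of thinned cells under the rule and in 93.7% and 92.7% of the other S100-high cells.

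The granule share varied over a wide range among the cells, and other genes varied with it. In 45 control and 59 GC cells of 0.3% to 1%, the 11 specific granule genes outside the rule (such as Lcn2, the chitinase-like Chil3 and the collagenase Mmp8) summed to 3653 and 3352 CPM, and in the 37 and 57 cells over 3% to 15288 and 13719 CPM. The highest over the lowest bin was 2.06 (1.94 to 2.19) on the log2 scale in the control and 2.03 (1.90 to 2.17) in the GC callus. The 14 inflammatory genes went the other way, from 6986 to 2970 CPM in the control and from 2745 to 1183 CPM in the GC callus. For Il1b, the cytokine interleukin-1β, the step was from 1656 to 55.3 CPM in the control and from 136 to 7.09 CPM in the GC callus.

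As a sum, mature neutrophil genes were nearly level over the bins in the control, at 8401, 7800 and 7606 CPM, though the receptors Csf3r and Cxcr2 among them were not. Their step, highest over lowest bin, was there -0.14 (-0.26 to -0.03) on the log2 scale and turned to 0.17 when CPM left out the 5 genes of the rule. In the GC callus they were at 9152, 8044 and 4603 CPM, a step of -0.99 (-1.10 to -0.88). Csf3r alone went from 310 to 76.0 CPM in the control and from 304 to 70.9 CPM in the GC callus. Cxcr2 went from 187 to 89.8 CPM and from 180 to 124 CPM. The late gene Retnlg went from 21427 to 13609 CPM and from 18216 to 6360 CPM. Cells of low granule share thus carried these late genes at higher levels. At least 2 UMIs of the mature list were found in 96.4% and 88.6% of thinned granule-gene cells, and in 71.7% and 71.4% of B cell barcodes. Across cells the mature list ranked with the granule share at a Spearman rho of -0.41 in the control and -0.30 in the GC callus. By rank the list was thus lower at high granule share in both libraries. Cells of high granule share were also deeper, with medians of 3723 and 3521 UMIs over 3% against 2006 and 2011 under 1%. Chondrocyte markers were lower in them, at 3164 against 46197 CPM in the control and 865 against 23483 CPM in the GC callus. Bin sums without the chondrocyte-rich cells were not computed, so their part in the level sum of the control was not tested. Across cells the granule share ranked with the specific granule list at a Spearman rho of 0.74 in 112 control and 0.74 in 180 GC cells, which share their library and their depth.

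**Figure D2:**
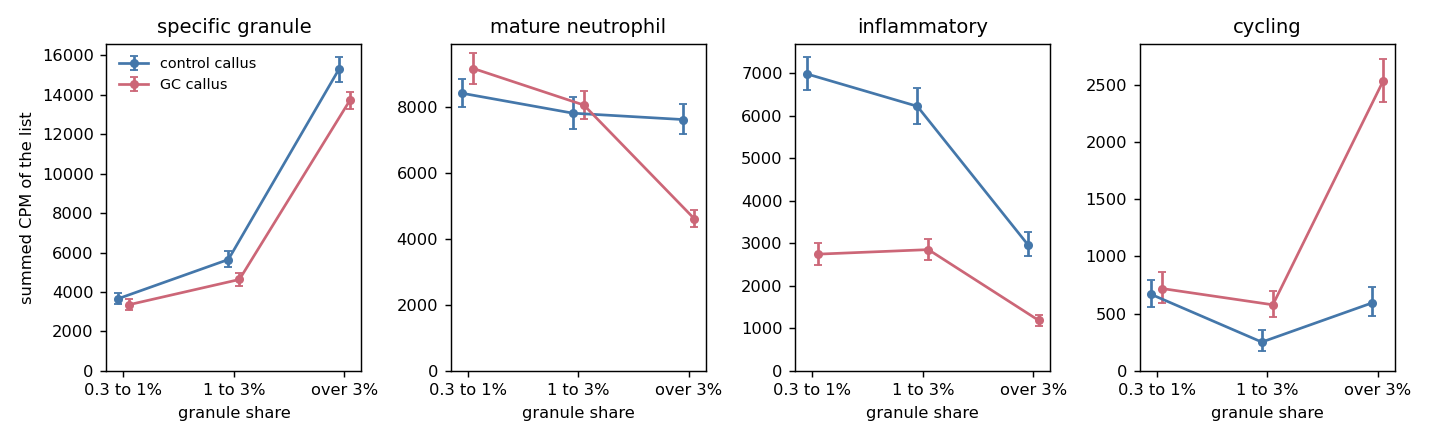
Summed CPM of 4 gene lists in granule-gene cells binned by the share of UMIs from Ngp, Camp and Ltf, with exact Poisson intervals, for the control and GC callus. Specific granule genes climb to 15288 and 13719 CPM over 3%, inflammatory genes are lower there, and cycling genes reach 2537 CPM only in the GC callus among these 6 bins.

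Granule-gene cells made up 1.57% of control callus cells (1.29% to 1.89%) and 2.46% of GC callus cells (2.12% to 2.84%), intervals that do not overlap. Over the cells with an S100 share of at least 1%, they were 7.24% (5.998% to 8.65%) and 13.8% (12.0% to 15.8%). In trabecular bone the same rule took 39.0% and 38.8% of all cells and 55.3% and 54.1% of the S100-high cells. Empty droplets there exceed its granule limit, as given above. Leaving out the cells with 1% or more chondrocyte UMIs left 106 control and 150 GC cells, or 1.49% (1.22% to 1.79%) and 2.05% (1.74% to 2.40%), and these intervals overlap.

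Il1b, Cxcl2, Hilpda and Osm were lower in the GC callus cells. Il1b was found in 40 of 110 control cells thinned to 1000 UMIs (36.4%, 27.4% to 46.1%) and in 10 of 175 GC cells (5.71%, 2.77% to 10.3%). Cxcl2, a neutrophil-attracting chemokine, was found in 63 of 110 control and 28 of 175 GC cells (57.3% in the control), Hilpda, a hypoxia-induced lipid droplet protein, in 40.9% and 10.3%, and Osm, the cytokine oncostatin M, in 22.7% and 4.57%. None of these 4 pairs of intervals overlapped. All 4 genes are among the 10 lowest ratios of GC over control named below, so such gaps can follow from the choice. The share of all genes with such gaps was not counted, and the intervals cover counting error only. In B cell barcodes of the callus, Il1b was found in 1.89% of the control cells and in 0 of 126 GC cells, which allows up to 2.38%. In trabecular bone Il1b was found in 12.6% of the control and 9.53% of the GC cells under the rule, and Cxcl2 in 453 of 1510 and 655 of 1836.

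In summed UMIs, Il1b stood at 839 CPM in the control and 46.6 CPM in the GC callus, a log2 ratio of GC over control of -4.03 (-4.77 to -3.63), the lowest of the 2711 genes measured with at least 50 UMIs over both libraries. Log2 ratios add 5 CPM to both sides. Cxcl2 stood at 2266 and 371 CPM (-2.59, -2.82 to -2.40), Hilpda at 652 and 82.0 CPM (-2.92, -3.45 to -2.56) and Osm at 265 and 41.8 CPM (-2.53, -3.34 to -2.05). Without the chondrocyte-rich cells these ratios were -4.39, -2.80, -3.13 and -2.90. Cebpb, a C/EBP factor of the emergency response, was at 1426 and 481 CPM (-1.56), and the endotoxin co-receptor Cd14 at 606 and 280 CPM (-1.10). Among all genes measured, 178 (6.57%) were at least 2-fold higher in the GC callus and 163 (6.01%) at least 2-fold lower.

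Of the 14 inflammatory genes, 9 were measured: 4 were at least 2-fold lower, 1 was higher and the median was -0.63 (-1.71 to -0.016 over the alternatives), beside 0.04 over all genes. The lower gene not yet named was Ptgs2, the prostaglandin synthase, at 859 and 169 CPM (-2.31). In the control, 3 cells held 78.4% of its control UMIs. The share of thinned cells with a Ptgs2 UMI was 9.09% in the control and 10.3% in the GC callus, near the 8.09% and 6.35% of B cell barcodes. Its ratio was -0.85 without the chondrocyte-rich cells and 0.14 with called doublets removed. Ccl3, a macrophage inflammatory chemokine, was the exception, at 17.3 CPM in the control and 193 CPM in the GC callus (3.15, 2.46 to 4.73), in 2.73% (0.566% to 7.76%) and 14.9% (9.94% to 21.0%) of thinned cells. Csf1, the growth factor of macrophages, was at 19.4 and 80.4 CPM (1.81, 1.01 to 3.26).

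In the other S100-high callus cells the inflammatory list had a median of 0.21, with 8 of 14 genes higher in the GC library and 6 lower, 2 and 4 of them past 2-fold. Il1b was there at 4831 and 882 CPM, Cxcl2 at 14492 and 3303 CPM, and Ccl3 at 347 and 694 CPM. There 3.36% of 5506 genes were at least 2-fold higher in the GC callus and 3.31% lower. In trabecular bone, where 0.479% of 9180 genes were at least 2-fold higher and 0.207% lower, Il1b was at 196 and 172 CPM and Cxcl2 at 675 and 909 CPM.

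**Figure D3:**
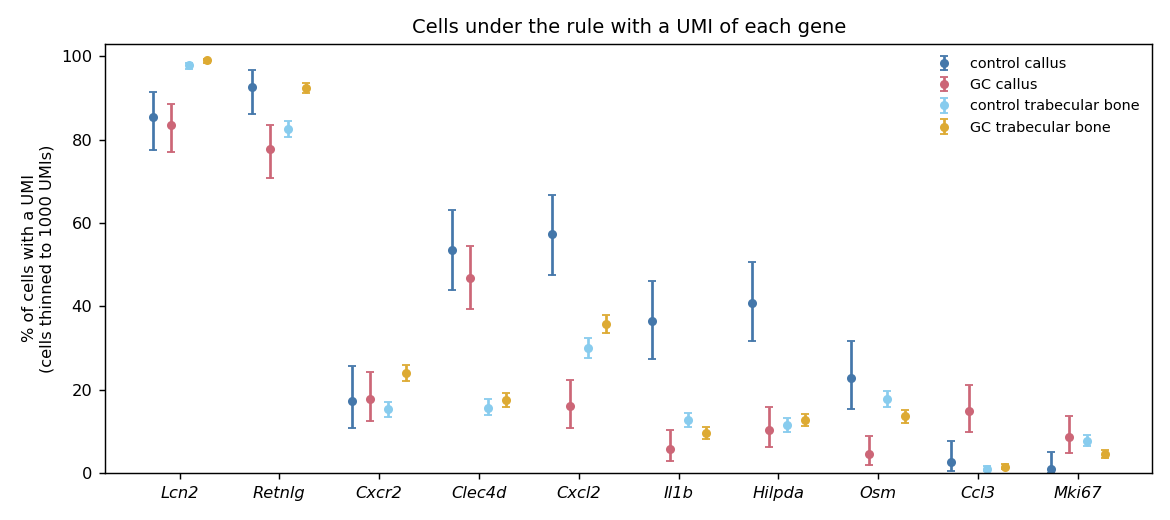
Percent of cells under the rule with a UMI of each gene after thinning to 1000 UMIs, with exact binomial intervals, in 110 control callus, 175 GC callus, 1510 control trabecular and 1836 GC trabecular cells. Cxcl2, Il1b, Hilpda and Osm lie highest in the control callus, Ccl3 in the GC callus, and Clec4d in both callus libraries.

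Cycling genes were higher in the GC callus as a sum over all 24, at 527 CPM in the control and 1503 CPM in the GC callus. Of 24, 8 were measured and 7 were at least 2-fold higher. Their median log2 ratio was 1.58 (1.03 to 2.16 over the alternatives). The UMI minimum for a measured gene favored genes higher in the GC library, so this count and median lean that way. Mki67, a marker of dividing cells, was at 32.4 and 256 CPM (2.80, 2.22 to 3.85), with all 15 control UMIs in 3 cells and the 159 GC UMIs in 26, and the topoisomerase Top2a at 62.6 and 199 CPM (1.60, 1.08 to 2.31). The helicase subunit Mcm7 was at 15.1 and 111 CPM (2.53) and Rrm2, which makes deoxynucleotides, at 12.9 and 75.5 CPM (2.17). At least 2 cycling UMIs were found in 4 of 110 thinned control cells (3.64%, 0.9995% to 9.05%) and in 25 of 175 GC cells (14.3%, 9.46% to 20.4%). Without the chondrocyte-rich cells the shares were 3.85% (1.06% to 9.56%) and 10.96% (6.40% to 17.2%), which overlap. Without thinning, which counts deeper cells more often, the shares were 17.0% and 20.6%. In trabecular bone the thinned shares were 17.0% in the control and 12.6% in the GC cells. Of the 25 GC cells, 14 had a granule share over 3%.

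Azurophil granule genes rested on few cells. Mpo, myeloperoxidase, was at 64.7 and 365 CPM (2.41, 1.94 to 3.10) and the elastase Elane at 319 and 780 CPM (1.27, 1.02 to 1.56), but 3 cells held all Mpo UMIs in the control and 89.4% in the GC callus, and 95.9% and 73.2% of the Elane UMIs. At least 2 azurophil UMIs were found in 3 of 110 thinned control cells (2.73%) and 7 of 175 GC cells, intervals of 0.566% to 7.76% and 1.62% to 8.07% that overlap. In B cell barcodes there were 0 of 371 and 0 of 126, which allows up to 0.809% and 2.38%. The median ratio of the 5 genes measured was 0.74, and -0.13 with a granule share of at least 0.6%.

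Specific granule genes differed little as a group, with a median of 0.02 over 11 genes, 1 at least 2-fold higher and 1 lower. Chil3 was at 995 and 2035 CPM (1.03, 0.88 to 1.19) and Olfm4, olfactomedin-4, at 196 and 67.5 CPM (-1.47, -2.10 to -0.998). Cebpe, the factor that drives specific granule genes, was at 21.6 and 85.2 CPM (1.76, 0.99 to 3.12), with 80.0% of the control UMIs in 3 cells. It was found in 2.73% and 4% of thinned cells, against 14.3% and 11.1% in trabecular bone. Of 12 mature neutrophil genes measured 3 were at least 2-fold lower, Il1r2 (the decoy receptor of interleukin-1, -1.47), Trem1 (-1.18) and G0s2 (-1.05), and none higher, with a median of -0.11. The gelatinase and late list had a median of -0.43 over 8 genes, with Stfa2l1 (-1.03) lower and Asprv1 (1.11) higher past 2-fold.

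Of 16 known glucocorticoid target genes, 9 were measured in the callus cells, 3 at least 2-fold lower and 0 higher, with a median of -0.28, which turned to 0.16 with called doublets removed and 0.26 as a mean over cells. The lower ones were the clock gene Per1 at 117 and 33.8 CPM (-1.65), Errfi1 (-1.26, and 0.53 with called doublets removed) and Il1r2. Mt1, a metallothionein, was at 371 and 662 CPM (0.83, 0.58 to 1.10), and its ratio was 1.68 (1.28 to 2.18) without the chondrocyte-rich cells. Klf9 was at 36.7 and 70.7 CPM (0.86, 0.11 to 1.85). Fkbp5, a co-chaperone of the glucocorticoid receptor, had 6 and 25 UMIs, under the minimum of 50. In trabecular cells under the rule the list went the other way, with a median of 0.41 over 14 genes, 12 higher and 2 lower. Of them 3 were at least 2-fold higher, beside 0.479% of all genes there, and 0 lower. This difference between the tissues was not tested.

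Most of the other genes among the 20 with the most extreme ratios, of at least 50 CPM in a library, belong to red cells or are known from cartilage. Hba-a1, Hba-a2, Hbb-bs and Hbb-bt, the hemoglobin chains, were higher in the GC callus by 3.51 to 4.99 on the log2 scale, beside the erythroid sums given above, and mt-Atp8, of the mitochondrial genome, by 2.34. Without the chondrocyte-rich cells Hbb-bs went from 852 to 100 UMIs in the GC callus and from a ratio of 4.49 to 1.61, Hba-a1 from 4.83 to 2.89 and Hba-a2 from 4.99 to 2.07. Ecrg4, Mia, C1qtnf3, Itm2a, Ucma and Prelp were lower, with ratios of -3.55 to -2.58, and 3 cells held 86.7% to 94.3% of the control UMIs of each. Without the chondrocyte-rich cells each kept at most 13 control UMIs, and the ratios of Ucma (-0.66) and Prelp (-0.67) had intervals that included 0.

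**Figure D4:**
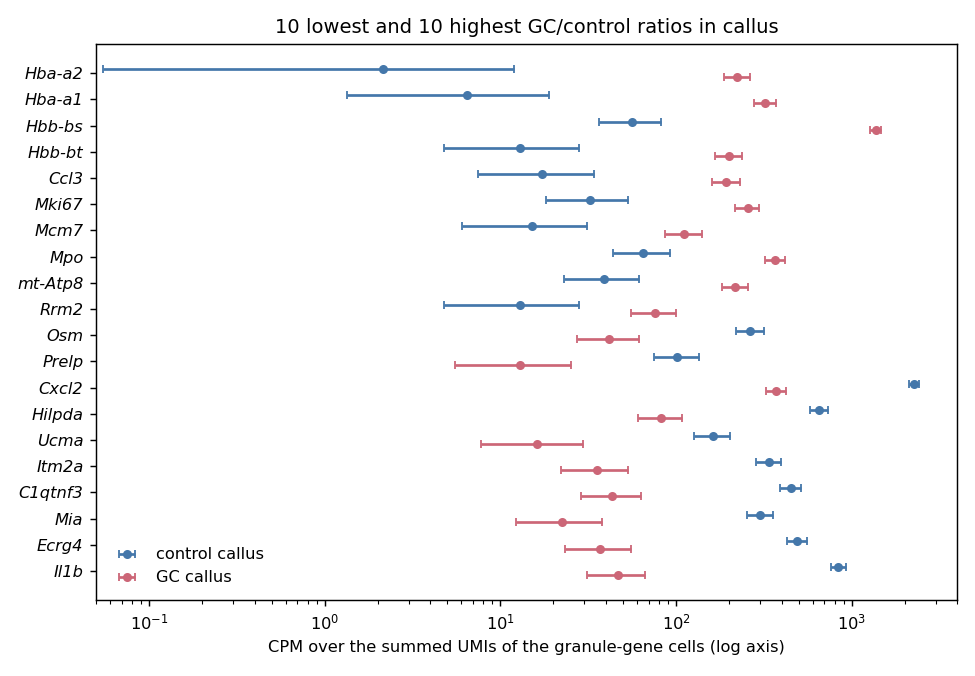
CPM of the 10 genes with the lowest and the 10 with the highest ratio of GC over control in the granule-gene cells of callus, among genes of at least 50 CPM in a library, with exact Poisson intervals on a log axis. Il1b lies at 839 and 46.6 CPM and Mki67 at 32.4 and 256 CPM. The genes were picked by these ratios, so gaps between the intervals of the 2 libraries follow from the choice.

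The 4 library sums of cells under the rule allowed 1 test, of callus against trabecular bone with treatment in the model. It has 1 residual degree of freedom, edgeR gave each gene the spread shared by all genes, and that spread is between 2 libraries of a tissue that also differ in treatment. Of 10423 genes tested, 1313 (12.6%) were higher in callus and 1350 (13%) lower at an adjusted p under 0.05 (edgeR quasi-likelihood, Benjamini-Hochberg over all genes tested other than the 5 of the rule). TMM scaling placed the median of all genes at -0.12 on the log2 scale. Scaling by library size alone placed it at 0.44 and gave 2104 higher and 424 lower calls, so the split between directions depends on the scaling. The 2 tissues also differ in free RNA, as given above.

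Granule genes were lower in callus. All 11 specific granule genes had lower fitted values and 9 passed the test (8 with library size alone), all 8 azurophil genes passed (6 with library size alone) and 6 of 10 gelatinase and late genes did (4). Lcn2 was at 4085 and 3851 CPM in the callus libraries and at 12786 and 16359 CPM in the trabecular ones, so the tissues did not overlap, with a log2 difference of -2.42 ± 0.35 (SE, edgeR quasi-likelihood adjusted p = 1.56e-10). Hp, haptoglobin, was at 158 and 130 against 1334 and 2476 CPM, a difference of -4.23 ± 0.37 (edgeR adjusted p = 3.77e-28). Ly6g, the surface marker of mouse neutrophils, was at 155 and 78.8 against 471 and 594 CPM (-2.80 ± 0.35, edgeR adjusted p = 3.53e-14). Anxa1, annexin A1, was at 412 and 448 against 2299 and 1888 CPM (-2.83 ± 0.34, edgeR adjusted p = 4.65e-15). Elane was at 319 and 780 against 1516 and 1664 CPM (-2.22 ± 0.33, edgeR adjusted p = 1.01e-09). In control trabecular bone, however, Elane was found in 8.87% of thinned cells under the rule and in 7.40% of B cell barcodes. For Lcn2 these shares were 97.9% and 21.5%, and for at least 2 azurophil UMIs 15.5% and 1.93%. The part of free RNA in the tissue differences was not tested. The 2 largest differences to lower values were those of Pi16 (4.32 and 4.82 against 76.3 and 90.5 CPM) and Lrg1 (34.5 and 45.01 against 571 and 798 CPM).

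The NADPH oxidase, which makes the oxidative burst, and the cycling list were also lower. Of 6 oxidase genes 5 passed, with a median of -1.73. Cyba, its membrane subunit, was at 570 and 645 CPM in callus against 1596 and 1810 CPM (-2.04 ± 0.33, edgeR adjusted p = 1.15e-08). Of 24 cycling genes 16 were lower (4 with library size alone) and 0 higher. Ube2c was at 21.6 and 28.9 CPM in callus against 180 and 165 CPM (-3.31 ± 0.39, edgeR adjusted p = 9.63e-16), while Mki67 at 32.4 and 256 against 165 and 104 CPM overlapped between the tissues and did not pass (edgeR adjusted p = 0.0977). Cebpe was lower, at 21.6 and 85.2 against 218 and 188 CPM (-2.58 ± 0.36, edgeR adjusted p = 4.84e-11). Oxidative phosphorylation genes were lower in 9 of 16 cases with TMM but in 1 with library size alone, and no cytosolic ribosome gene of 20 passed in either direction with TMM.

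Mature neutrophil genes were mixed, with 2 of 13 higher and 7 lower. Clec4d, a lectin receptor of activated myeloid cells, was at 650 and 691 CPM in callus against 137 and 140 CPM (1.72 ± 0.32, edgeR adjusted p = 1.06e-06) and was found in 53.6% and 46.9% of thinned callus cells against 15.7% and 17.5%. Btg1, an antiproliferative factor, was at 3599 and 3192 against 1199 and 906 CPM (1.15 ± 0.32, edgeR adjusted p = 0.00253, and up to 0.0695 over the alternatives). Il1r2 and the formyl peptide receptor Fpr2 were lower, with differences of -2.21 and -1.94. Csf3r at 179 and 177 against 166 and 166 CPM did not pass (edgeR adjusted p = 0.317), and neither did Retnlg, whose libraries overlapped (19527 and 11920 against 12181 and 17232 CPM, edgeR adjusted p = 0.33).

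Calls went both ways among inflammatory and Bcl2 family genes. Of 14 inflammatory genes 5 were higher and 2 lower. Il1rn, the interleukin-1 receptor antagonist, was at 179 and 227 CPM against 38.5 and 32.0 CPM (1.97 ± 0.33, edgeR adjusted p = 4.03e-08). Ccl4, a chemokine, was at 160 and 101.3 against 12.5 and 23.9 CPM (2.31 ± 0.35, edgeR adjusted p = 9.17e-10). Of 11 Bcl2 family genes 4 were higher and 1 lower, among them the survival factor Bcl2l1 at 155 and 135 against 23.7 and 45.9 CPM (1.57 ± 0.33, edgeR adjusted p = 3.05e-05) and Bcl2l11, which promotes cell death, at 369 and 389 against 128 and 94.8 CPM (1.23 ± 0.32, edgeR adjusted p = 0.000849). Over the alternatives the adjusted p of these 2 reached 0.125 and 0.16. Il1b and Cxcl2 did not pass, their control callus values lying above and their GC callus values below both trabecular libraries.

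Of the 13 glucocorticoid target genes tested 4 were higher and 4 lower. The metallothioneins Mt1 (371 and 662 against 47.8 and 63.9 CPM, 2.61 ± 0.33) and Mt2 (123 and 145 against 1.72 and 1.51 CPM, 5.81 ± 0.41), Sgk1 (306 and 251 against 52.1 and 72.6 CPM, 1.61 ± 0.32) and Errfi1 (393 and 161 against 5.16 and 10.5 CPM, 4.53 ± 0.37) were higher, each at an edgeR adjusted p of 7.57e-06 or less. Without the chondrocyte-rich cells the differences were 1.89, 3.41, 0.94 and 2.16, and that of the hexokinase Hk2 went from 1.14 to 0.09. All 11 chondrocyte and 8 osteoblast and stromal genes were called higher in callus, and the 10 largest differences to higher values were of cartilage or bone genes, led by Col10a1 and Col2a1. Without the chondrocyte-rich cells 797 genes were called higher and 913 lower.

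**Figure D5:**
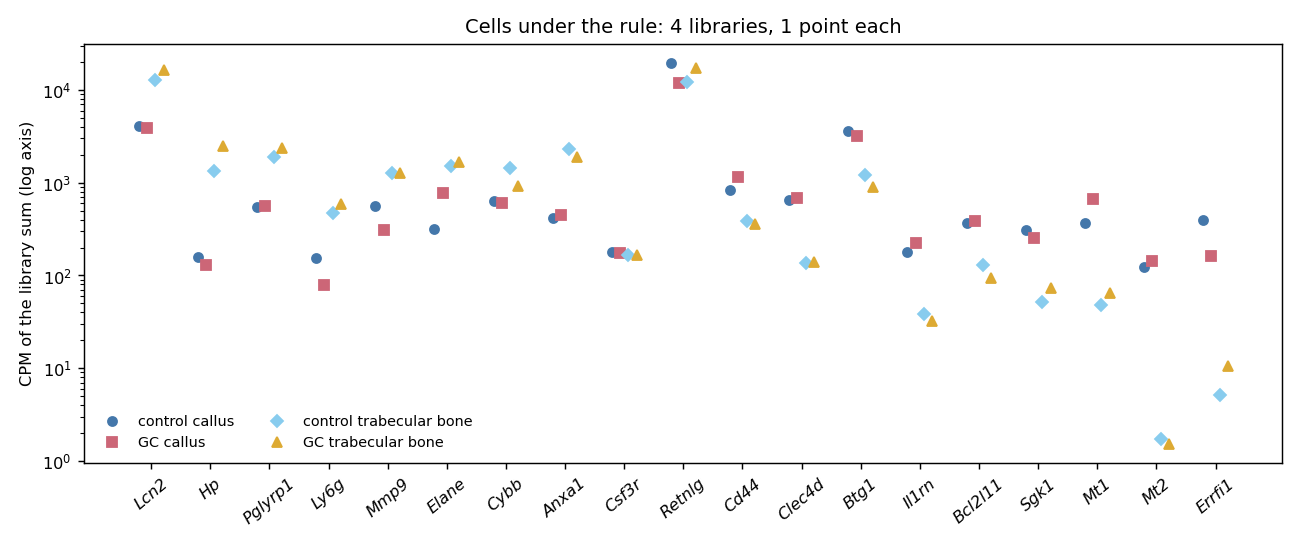
CPM of 19 genes in the sums of cells under the rule, 1 point for each of the 4 libraries, on a log axis. From Lcn2 to Anxa1 both callus libraries lie below both trabecular ones, from Cd44 to Errfi1 above, Csf3r lies between 166 and 179 CPM in all 4, and the libraries overlap for Retnlg.

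The treatment term of the same model, which takes the change as equal in both tissues, called 28 genes higher with GC (0.269%) and 27 lower (0.259%). With DESeq2 1 was higher and 0 lower, with library size alone 3 and 4. Hemoglobin and cartilage genes were among the calls of lowest p, such as Hbb-bs (log2 2.43, edgeR adjusted p = 3.18e-07) to higher and Ecrg4 (-3.73, edgeR adjusted p = 4.29e-09) to lower values, and Col9a1 (-1.76) and Matn3 (-1.88) were also lower. Of neutrophil and glucocorticoid genes the calls included Fkbp5, at 12.9 and 40.2 CPM in callus and 14.8 and 50.9 CPM in trabecular bone (log2 1.73, edgeR adjusted p = 0.00521), Klf9 (1.33, edgeR adjusted p = 0.0416) and Chil3 (1.36, edgeR adjusted p = 0.0137) to higher, and Il1b (-1.98, edgeR adjusted p = 7.83e-05) and Ptgs2 (-1.61, edgeR adjusted p = 0.000527) to lower values. For Il1b and Ptgs2 the term averages a larger difference of summed UMIs in callus with a smaller one in trabecular bone. For Ptgs2 the callus difference rests on 3 control cells with 78.4% of the control UMIs. By share of thinned cells, Ptgs2 was at 9.09% in the control and 10.3% in the GC callus. In trabecular bone these shares were 2.38% and 0.871%.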

How the data were processed

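Single-cell RNA-seq was made with 10x chemistry from 4 libraries, control and GC, of fracture callus and trabecular bone. The deposited values are raw UMI counts per gene and barcode, which the authors made with Cell Ranger (the submitters' processing notes name Cell Ranger 5.0.1, Seurat 3.2.0 and mm10). The 4 libraries held 95852254, 64388215, 41239842 and 45876714 UMIs (control callus, GC callus, control and GC trabecular bone).

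Cells were selected and grouped by the rule given above, and the cells and gene lists were chosen with earlier results of these data known. UMIs were summed per library and given as CPM, with exact Poisson intervals, exact conditional intervals of ratios and Clopper-Pearson intervals of shares. Intervals and floors (3 counts) cover counting error only. Shares of cells used cells thinned to 1000 UMIs. B cell barcodes had at least 3 UMIs of Cd79a and Cd79b and 0.1% of their UMIs from them. Called doublets (simulated pairs, 0.8% per 1000 cells) were kept, and 7 control and 5 GC callus cells under the rule were removed as an alternative. Callus was compared with trabecular bone across all genes with edgeR 4.0.16 (quasi-likelihood, TMM, filterByExpr, treatment as a term, R 4.3.3), and DESeq2 1.42.0 was an alternative. The scripts were tested on simulated data. Genes named outside the lists were the 10 highest and 10 lowest ratios of GC over control among genes of at least 50 CPM in a library, and the 10 largest changes called in each direction between the tissues, with at least 50 CPM in both libraries of the higher tissue. Leaving out chondrocyte-rich cells and scaling by library size alone were added after seeing the data.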

Additional observations from a re-analysis of the deposited data

Results flagged for a closer look

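Among measured genes with the 10 lowest or 10 highest callus ratios, 6 had GC on opposite sides of the control in callus and trabecular bone. The median of the cycling list did so as well. Lists with smaller callus medians did so too, such as the inflammatory list (log2 medians of -0.63 in callus and 0.25 in trabecular bone). How many of all genes changed sign was not counted. With 1 library per tissue and treatment, the difference between the tissues was not tested. The log2 ratios of GC over control were -2.92 in callus and 0.26 in trabecular bone for Hilpda, and -2.59 and 0.43 for Cxcl2. Mki67 had 2.80 and -0.64, and Mcm7 2.53 and -0.64. Mpo had 2.41 and -0.18, and mt-Atp8 2.34 and -0.61. The cycling list had a median of 1.58 over 8 genes in callus and -0.29 over 24 genes in trabecular bone. In callus the UMI minimum favored genes higher in the GC library.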

How the results depend on the processing

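No paired analysis was possible because the groups share only replicate number 1. Tissue calls numbered 826 higher and 543 lower with DESeq2, 2104 and 424 with library size alone, 863 higher with doublets removed and 797 higher without chondrocyte-rich cells. Leaving out 1 library gave 610 to 1096 higher and 510 to 1290 lower calls, 614 and 599 without control trabecular bone and 610 and 510 without GC trabecular bone. Treatment calls numbered 1 higher and 0 lower with DESeq2 (424 genes had an unadjusted p under 0.05 in edgeR), 3 and 4 with library size alone, 13 and 4 with doublets removed, and 15 lower without chondrocyte-rich cells.

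In callus, genes past 2-fold numbered 541 higher and 521 lower at 10 UMIs a gene, 36 and 61 at 200 UMIs, 268 and 96 as a mean over cells, where 73.6% of them were higher against 52.2%, and 99 lower with doublets removed. The list medians below are log2 ratios of GC over control. With doublets removed they were -0.33 for specific granule, -0.87 for gelatinase, -0.44 for mature, -0.11 for inflammatory, 0.16 for glucocorticoid response and 1.28 for chondrocyte genes, and Ptgs2 was at 0.14 and Errfi1 at 0.53. As a mean over cells they were -0.29 for specific granule, -0.54 for gelatinase, 0.26 for glucocorticoid response and 0.78 for chondrocyte genes, and Errfi1 was at 0.26. Without chondrocyte-rich cells they were -0.69 for gelatinase, -0.27 for mature, -0.65 for glucocorticoid response and -1.42 for chondrocyte genes. At an S100 share of 2% they were -0.34 for gelatinase, -0.69 for glucocorticoid response and -2.04 for chondrocyte genes. At a granule share of 0.6% they were -0.48 for gelatinase, -0.13 for azurophil, -0.28 for mature and -1.08 for chondrocyte genes. Inflammatory genes were at -0.016 at 10 UMIs and -1.71 at 200 UMIs, where gelatinase was -0.14 and mature -0.50. Median ratio scaling gave -0.47 for gelatinase.

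The share of cells under the rule was 1.28% and 2.08% at a granule share of 0.6%, 2.90% in the GC callus at 0.15%, 7.24% and 13.8% over S100-high cells, and 2.05% in the GC callus without chondrocyte-rich cells. Cycling shares were 18.2% and 22.9% with 1 UMI, 17.0% and 20.6% without thinning, and in the GC callus 8% with 3 UMIs and 7.78% thinned to 500 UMIs. The steps over granule bins with CPM free of the rule genes were 2.38 and 2.30 for specific granule, 0.17 and -0.73 for mature, and -0.92 and -0.95 for inflammatory genes, and with equal-sized bins -0.27 for mature genes in the control. The cause of these shifts was not tested. Of the other values, 149 of the comparisons and 211 of single genes moved by less than their interval or 1.5 times.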

Other observations

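Interferon-stimulated genes were lower in the GC callus cells in all 4 of the 14 that were measured, 2 of them at least 2-fold, with a median log2 ratio of -1.12. In trabecular bone the median was -0.49 over 11 genes. Adhesion and homing genes (median 0.11 over 8) and the 6 NADPH oxidase genes (median -0.11) had no member past 2-fold in callus. The Bcl2 family had a median of -0.43 over 5 genes, with none past 2-fold. Dissociation stress genes, which enzyme digestion can raise, had a median of -0.89 over 10 genes, 3 at least 2-fold lower and 1 higher.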
